A study of Mus musculus with 24 samples.

Results

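RNA from heavy polysomes was compared between Ras and Myc transformed mouse fibroblasts with 1 intact allele of Eif4e and their wild type counterparts. The groups were taken from the sample labels alone, and 6 of the 24 arrays of the study entered the comparison. Of these, 3 were transformed cultures of Eif4e+/- embryos, called Het here, and 3 were transformed cultures of wild type embryos, called WT. All 6 cultures derived from fibroblasts isolated from E13.5 embryos and carried both oncogenes, so the WT cultures were transformed as well, and each came from a separate embryo. Cells were grown in 10% serum and harvested at early passage in exponential growth. Ribosomes were arrested with cycloheximide at 100 µg/ml, and high molecular weight polysomes were collected from a 10 to 50% sucrose gradient. Whether a transformed culture was a pool of cells or 1 clone was not given in the sources used here. The untransformed polysomal arrays (3 Het and 3 WT) shared the fit, and the total RNA arrays are set beside single results.

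eIF4E binds the cap at the 5′ end of an mRNA and, with the scaffold eIF4G and the helicase eIF4A, forms the eIF4F complex that brings the small ribosomal subunit to the message. Binding proteins such as 4E-BP1 compete with eIF4G for eIF4E and are released when mTOR phosphorylates them. eIF4E is known as a limiting factor in cells transformed by Ras and Myc, where long, structured or growth-related mRNAs are described as depending on it most. An mRNA in heavy polysomes carries many ribosomes, so its polysomal level depends both on how much of the mRNA a cell holds and on how densely it is translated. No total RNA value was subtracted here, and these contributions cannot be told apart from polysomal values alone.

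Values are log2 RMA intensities, and a difference of 1 is a 2-fold difference in signal. The median of an array lay between 3.40 and 3.48 and its 90th percentile between 5.46 and 5.76. Y-linked genes in the 4 cultures whose embryos showed no Y-linked expression gave a measure of background of 2.00 to 3.30, and 1 Het and 1 WT embryo showed Y-linked expression. Among fibroblast markers Sparc was well above it, at 9.22 to 9.57 in Het and 9.0 to 9.65 in WT cultures, as was Vim, at 8.72 to 9.51 in Het and 9.11 to 9.52 in WT cultures. All 19 measured fibroblast markers exceeded background on at least 1 array. Fn1 read 6.51, 7.27 and 5.60 in Het and 5.78, 6.03 and 6.39 in WT cultures. Twist1 read 5.28, 5.65 and 5.92 in Het and 4.98, 5.25 and 5.41 in WT cultures. Some others were lower or uneven. Lum, at or near background, read 2.21, 2.82 and 2.25 in Het and 2.26, 3.61 and 3.41 in WT cultures. Dcn read 2.92, 4.72 and 3.37 in Het and 2.70, 5.20 and 5.32 in WT cultures. Pdgfrb read 4.40, 3.96 and 3.51 in Het and 3.38, 3.35 and 3.54 in WT cultures. The leukocyte marker Ptprc, the endothelial marker Pecam1 and the epithelial marker Epcam were at or under the background limit on all 6 arrays. Arrays correlated at 0.946 to 0.958 among Het cultures, 0.898 to 0.953 among WT cultures and 0.911 to 0.960 between the genotypes. The first principal component, 40.3% of the variance, set WT culture 3 (44.73) and Het culture 2 (15.52) apart from the other 4, which lay between -25.14 and -7.85. The values of these 2 arrays also had the smallest spread, with an SD of 1.28 in Het culture 2 and 1.25 in WT culture 3 against 1.37 to 1.42 in the others. The second component, 18.6% of the variance, placed the Het cultures at -1.62, -25.79 and -13.61 and the WT cultures at 21.23, 5.53 and 14.25, without overlap.

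Eif4e itself, the targeted gene, was lower on average in Het polysomes, but the cultures overlapped. Its brighter probe set (10496485) read 4.65, 3.87 and 4.96 in Het cultures, against 4.92, 5.47 and 4.68 in WT cultures. The mean was 4.49 ± 0.56 in Het and 5.02 ± 0.41 in WT cultures (SD, n = 3 each), 69.1% of the WT level, and a two-sided exact permutation test gave p = 0.4, where 3 against 3 cannot go below 0.1. In limma, a linear model fitted to all genes with a shared estimate of the spread, the difference was -0.53 ± 0.27 (SE, adjusted p = 1). Het culture 3 lay above WT cultures 1 and 3, and Het culture 2 lay lowest. The second probe set (10496490) was dimmer, at 3.86, 3.87 and 4.24 in Het cultures against 4.38, 4.24 and 3.92 in WT cultures, with an exact permutation p of 0.3. In total RNA of the same cultures the brighter probe set read 9.10, 8.84 and 9.21 in Het and 9.80, 9.67 and 9.40 in WT cultures, without overlap (exact permutation p = 0.1). The polysomal difference of Eif4e was -0.22 without Het culture 2 and -0.77 without Het culture 3.

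**Figure D1:**
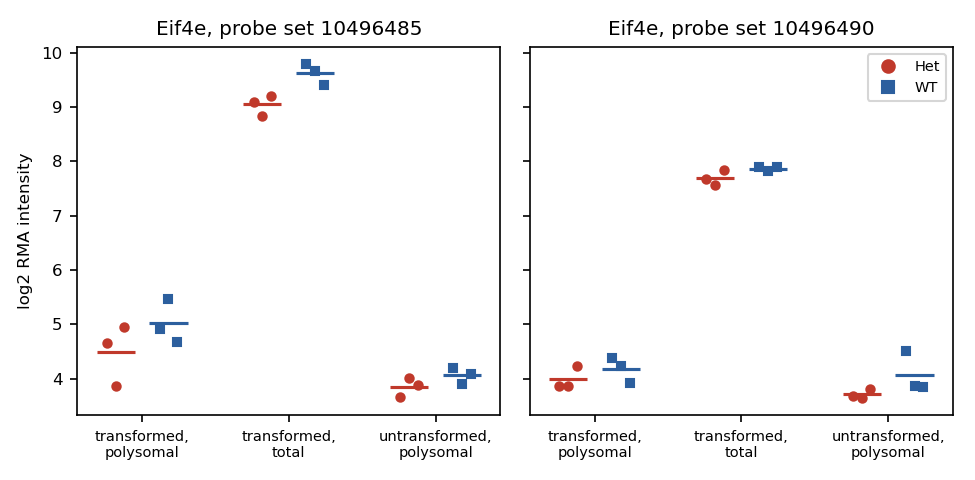
Log2 RMA intensity (vertical axis) of the Eif4e probe sets in 3 kinds of sample, with Het cultures as red circles, WT cultures as blue squares and group means as lines. In transformed polysomal RNA the brighter probe set spans 3.87 to 4.96 in Het and 4.68 to 5.47 in WT cultures and the groups overlap, whereas in transformed total RNA they do not.

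The other measured members of a list of eIF4F subunits, cofactors and paralogs had polysomal differences of -0.55 to 0.02. Of 11 genes listed 9 were measured, and the scaffold gene Eif4g1 and the helicase gene Eif4a1 were not among these. Among the 9 measured members, Eif4e included, the median difference, Het minus WT, was -0.23, with 1 positive and 8 negative. The median over all 14830 genes tested was -0.006. When each culture was left out in turn, the median of the list ran from -0.20 to -0.07. Eif4a2, which encodes a form of the eIF4A helicase, read 7.17, 7.12 and 7.05 in Het and 7.86, 7.71 and 7.44 in WT cultures. The groups did not overlap, yet the difference of -0.55 ± 0.31 (SE) had an unadjusted p of 0.103. It was the 1 member of the 9 with each Het culture below each WT culture, against 4.37% of all genes tested. Eif4h, a cofactor of that helicase, differed by -0.23, and the other 6 members by -0.24 to 0.02.

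Among 14 regulators and poly(A)-binding proteins the median was 0.03. Paip1, a partner of the poly(A)-binding protein that stimulates initiation, read 5.0, 4.43 and 5.38 in Het and 3.98, 4.55 and 2.96 in WT cultures, a difference of 1.11 ± 0.37 (SE, limma adjusted p = 1). Het culture 2 fell below WT culture 2. WT culture 3 was the lowest of all and lay within background, so the size of the Paip1 difference is a bound. Larp4, which binds poly(A) tails and stabilises mRNAs, differed by -0.77 and Pabpc1, the main cytoplasmic poly(A)-binding protein, by -0.38. Eif4ebp1, which encodes the repressor 4E-BP1, read 5.24, 5.32 and 5.36 in Het and 5.15, 5.08 and 5.03 in WT cultures, a narrow gap of 0.22 with no overlap. Mknk2, a kinase that phosphorylates eIF4E, differed by 0.23, and the other 9 members by -0.35 to 0.44.

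No gene passed the test between the genotypes. With limma over the 12 polysomal arrays, 0 of 14830 genes had a Benjamini-Hochberg adjusted p under 0.05 in either direction (0% higher and 0% lower), and the smallest adjusted p was 0.072. At an unadjusted p under 0.05 there were 478 genes, 239 higher in Het (1.61%) and 239 lower (1.61%). The groups did not overlap in 614 genes with each Het culture above each WT culture (4.14%) and in 648 with each Het culture below (4.37%). Differences ran from -1.89 to 2.48, with 43 genes at least 2-fold higher and 36 at least 2-fold lower in Het. The median SE of a difference was 0.22, so that the 95% interval of a typical gene reached 0.478 to either side. The genes named below led the ranking by p and are described by their values.

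The highest positive differences in Het polysomes included genes of the contractile apparatus of smooth muscle and myofibroblasts. Tagln, which encodes the actin-binding protein transgelin, read 6.45, 6.80 and 5.35 in Het cultures, against 4.0, 4.03 and 3.97 in WT cultures. Each Het culture lay above each WT culture, and the 3 WT cultures were nearly equal. The difference was 2.20 ± 0.38 (SE, 95% interval 1.37 to 3.03), a 4.60-fold difference, with a limma adjusted p of 0.289. Myl9, the regulatory light chain of smooth muscle myosin, read 6.52, 7.5 and 5.61 in Het and 4.59, 4.33 and 5.36 in WT cultures, again without overlap. Its difference was 1.78 ± 0.41 (SE, 3.44-fold, adjusted p = 1).

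Cnn1, which encodes the actin- and myosin-binding protein calponin, read 7.31, 7.09 and 5.59 in Het and 3.06, 3.78 and 5.72 in WT cultures. WT culture 1 lay within background, so the size of its difference is a bound. WT culture 3 lay just above Het culture 3, so the groups overlapped although the mean difference was 2.48 ± 0.58 (SE, 5.57-fold, adjusted p = 1). Acta2, smooth muscle alpha-actin and a common marker of myofibroblasts, also had WT culture 3 just above Het culture 3, with 8.16, 8.81 and 7.20 in Het and 5.90, 5.81 and 7.30 in WT cultures. Its difference was 1.72 ± 0.43 (SE, 3.30-fold, adjusted p = 1). In all 4 genes Het culture 3 was the lowest of the Het cultures.

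The rest of the contractile and actin list did not share these sizes. Over its 40 measured members the median difference was 0.06 and 26 were positive. An unadjusted p under 0.05 was found in 5, all higher in Het, while 0 were lower, beside 1.61% of all genes on each side. Het and WT cultures did not overlap in 2 members with Het higher (5%) and 0 with Het lower, beside 4.14% and 4.37% of all genes. Without WT culture 3 the count with Het higher was 10, against 8.82% of all genes under that choice. Without Het culture 2 it was 4, against 9.80% of all genes. The mean level of the list was 5.80, 5.86 and 5.34 in Het cultures and 5.20, 5.38 and 5.54 in WT cultures, so Het culture 3 fell within the WT range. The mean of 19 fibroblast markers had a like order, at 5.57, 5.87 and 5.16 in Het and 4.92, 5.51 and 5.53 in WT cultures, and its part in the contractile values was not tested.

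In untransformed fibroblasts these 4 mRNAs were far more abundant on polysomes than in any transformed culture. Tagln ranged from 8.59 to 9.93 over the 6 untransformed cultures, Myl9 from 10.02 to 10.77, Cnn1 from 9.46 to 10.15 and Acta2 from 11.07 to 11.86. The transformed Het cultures thus lay between the transformed WT and the untransformed levels in Tagln and Myl9. The Het minus WT differences in untransformed polysomal RNA were 0.21 ± 0.38 for Tagln, 0.01 ± 0.41 for Myl9, 0.10 ± 0.58 for Cnn1 and 0.17 ± 0.43 for Acta2 (SE). Over the 12 polysomal arrays the genes whose level followed Tagln most closely were Myl9 (Pearson r 0.985), Acta2 (0.983), Htr1b (0.973), Msrb3 (0.968) and Tgfb3 (0.968), a description over arrays that include both transformed and untransformed cultures. Msrb3, a methionine sulfoxide reductase, read 4.77, 4.59 and 4.49 in Het and 4.17, 3.93 and 3.98 in WT cultures, without overlap.

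**Figure D2:**
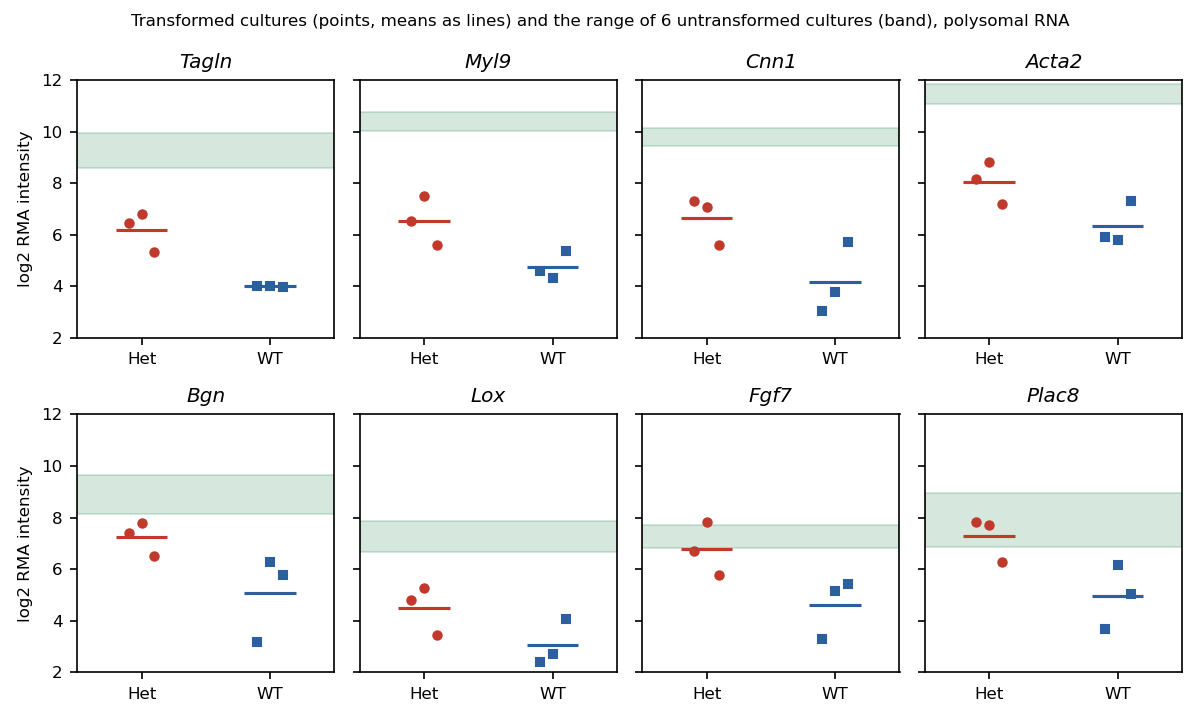
Log2 RMA intensity in polysomal RNA (vertical axis) of 4 contractile genes and of Bgn, Lox, Fgf7 and Plac8, with transformed Het cultures as red circles, transformed WT cultures as blue squares, group means as lines and the range of the 6 untransformed cultures as a green band. Het culture 3 is the lowest Het culture in each panel, and Tagln at 5.35 to 6.80 in Het and 3.97 to 4.03 in WT cultures stays below its untransformed band of 8.59 to 9.93.

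Smooth muscle contractile genes are textbook targets of the serum response factor, SRF, which binds a motif called the CArG box, and the stretches upstream of Myl9, Acta2 and Cnn1 are shown because these genes were among the 12 with the smallest p on the higher side. They are the 250 bases before the annotated start, from RefSeq on the GRCm38.p6 build. Capitals mark a full CArG box in Myl9, and in Acta2 10-base stretches that are 1 base off it, and Cnn1 has neither. Myl9 also holds a stretch 1 base off, CCTTGTAAGG, left in lower case.
Myl9, chr2:156775214-156775463, plus strand: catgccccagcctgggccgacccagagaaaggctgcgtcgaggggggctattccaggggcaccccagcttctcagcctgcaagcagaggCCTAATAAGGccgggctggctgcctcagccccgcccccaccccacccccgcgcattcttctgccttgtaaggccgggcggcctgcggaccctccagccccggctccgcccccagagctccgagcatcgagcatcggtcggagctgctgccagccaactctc
Acta2, chr19:34255374-34255623, minus strand: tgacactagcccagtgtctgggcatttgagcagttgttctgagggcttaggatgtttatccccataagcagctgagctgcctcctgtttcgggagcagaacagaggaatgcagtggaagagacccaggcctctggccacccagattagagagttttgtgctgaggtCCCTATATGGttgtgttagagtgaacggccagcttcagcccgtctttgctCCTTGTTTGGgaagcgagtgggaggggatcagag
Cnn1, chr9:22099003-22099252, plus strand: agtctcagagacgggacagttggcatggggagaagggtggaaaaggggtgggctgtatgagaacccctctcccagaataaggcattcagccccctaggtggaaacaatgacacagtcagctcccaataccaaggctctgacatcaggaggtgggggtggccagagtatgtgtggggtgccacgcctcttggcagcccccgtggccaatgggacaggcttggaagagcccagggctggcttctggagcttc

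The CArG box of Myl9 began at position -161 from the start and its stretch 1 base off at -99, and the stretches in Acta2 at -84 and -34. The full motif is its own reverse complement, so both strands were covered by 1 search, and it occurred in 1.47% of 32851 RefSeq promoter windows of the same length. A full box or a stretch 1 base off occurred in 18.6% of them. Of the 40 measured members of the contractile and actin list 33 had a window in the table, and 8 of these (24.2%) held a full box, among a list assembled in part from known SRF targets. No full box or stretch 1 base off was found in the window of Cnn1. Tagln was not among the windows. A match in letters describes the sequence and is not evidence of binding.

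The other genes that led the ranking on the higher side had mixed functions. S100g, a small calcium-binding protein, read 4.49, 4.20 and 5.54 in Het and 3.41, 3.37 and 3.37 in WT cultures, where it lay near background. Its difference was 1.36 ± 0.30 (SE, 2.57-fold, adjusted p = 1). Fgf7, a growth factor that mesenchymal cells secrete to act on epithelium, read 6.71, 7.85 and 5.78 in Het and 3.28, 5.17 and 5.44 in WT cultures, without overlap but with a wide spread in both groups (2.15 ± 0.55, SE). WT culture 1 lay within background for Fgf7, so this size is a bound. Htr1b, a serotonin receptor, read 6.36, 6.76 and 6.43 in Het and 4.75, 6.04 and 4.89 in WT cultures (1.29 ± 0.33, SE).

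Frat2, which inhibits the kinase GSK3 in Wnt signalling, read 5.92, 5.65 and 6.09 in Het against 5.11, 5.27 and 5.13 in WT cultures, a smaller difference with tighter groups (0.72 ± 0.17, SE). Mbd3, a subunit of the NuRD chromatin complex, read 5.62, 5.19 and 5.60 in Het and 4.92, 4.78 and 4.67 in WT cultures (0.68 ± 0.17, SE). Ap4s1, a subunit of the AP-4 vesicle adaptor, differed by 0.85 ± 0.21 (SE), Dtwd1, a tRNA-modifying enzyme, by 1.02 ± 0.25, and Syce2, a component of the meiotic synaptonemal complex, by 1.08 ± 0.28. In each of these 5 genes every Het culture lay above every WT culture. Each had an adjusted p of 1.

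The smallest p-values of all belonged to mRNAs that were lower in Het polysomes. Enthd1, which encodes a protein with an epsin N-terminal homology domain, read 4.10, 3.95 and 3.66 in Het cultures, against 5.10, 5.63 and 5.54 in WT cultures. The gap between the groups was wider than the range within either, and the difference was -1.52 ± 0.21 (SE, 95% interval -1.97 to -1.06, limma adjusted p = 0.072). Csta2, a member of the stefin family of cysteine protease inhibitors, read 2.49, 2.44 and 2.53 in Het, within the background range of 2.00 to 3.30, and 4.24, 3.68 and 4.49 in WT cultures. Its difference was -1.65 ± 0.23 (SE, limma adjusted p = 0.072). Stefin genes have near-identical copies in the mouse, so the probe set may read more than 1 of them.

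Egln3, a prolyl hydroxylase that marks hypoxia-inducible factors for breakdown and is itself induced by hypoxia, read 4.40, 3.42 and 3.84 in Het and 5.41, 5.12 and 5.58 in WT cultures. It did not overlap, with a difference of -1.48 ± 0.26 (SE, 2.79-fold, limma adjusted p = 0.289). Pxdc1, which encodes a PX domain protein, read 4.86, 4.69 and 4.78 in Het and 5.62, 6.21 and 5.91 in WT cultures, a difference of -1.14 ± 0.22 (SE, adjusted p = 0.663). Srxn1, sulfiredoxin, which restores oxidised peroxiredoxins and is a target of NRF2, read 4.61, 4.8 and 4.89 in Het and 5.47, 5.71 and 5.76 in WT cultures (-0.88 ± 0.23, SE, adjusted p = 1).

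The stretch upstream of Egln3 is shown because it was the gene with the smallest p among the hypoxia response genes. Capitals mark the core letters ACGTG of the element that hypoxia-inducible factors bind.
Egln3, chr12:54203875-54204124, minus strand: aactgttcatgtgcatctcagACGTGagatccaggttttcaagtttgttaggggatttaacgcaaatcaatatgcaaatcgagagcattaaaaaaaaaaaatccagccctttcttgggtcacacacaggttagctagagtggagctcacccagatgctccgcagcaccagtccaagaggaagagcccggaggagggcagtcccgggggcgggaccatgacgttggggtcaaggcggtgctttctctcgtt
The core was searched as ACGTG or GCGTG on both strands and occurred in 38.6% of all windows, once in Egln3, at -229 from the start. Such a short motif is frequent, and its presence here is a description of the letters only.

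The other 7 of the 12 leading genes on the lower side also had each Het culture below each WT culture. Ptpre, a receptor-type tyrosine phosphatase, differed by -0.76 ± 0.18 (SE) and Ehd4, which acts in endosomal transport, by -0.99 ± 0.26. Trim2, an E3 ubiquitin ligase, differed by -0.74 ± 0.20, and Hao1, a peroxisomal hydroxyacid oxidase, by -1.19 ± 0.30. H2bc21, a histone H2B gene, read 4.02, 4.43 and 3.59 in Het and 4.49, 5.45 and 5.76 in WT cultures (-1.22 ± 0.29, SE). The predicted gene Gm14137 differed by -0.97 and Igsf5, an adhesion molecule of the immunoglobulin superfamily, by -0.60. Their adjusted p was 1, and Gm14137, Hao1 and Igsf5 had Het values of 2.51 to 3.47, at or near background.

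**Figure D3:**
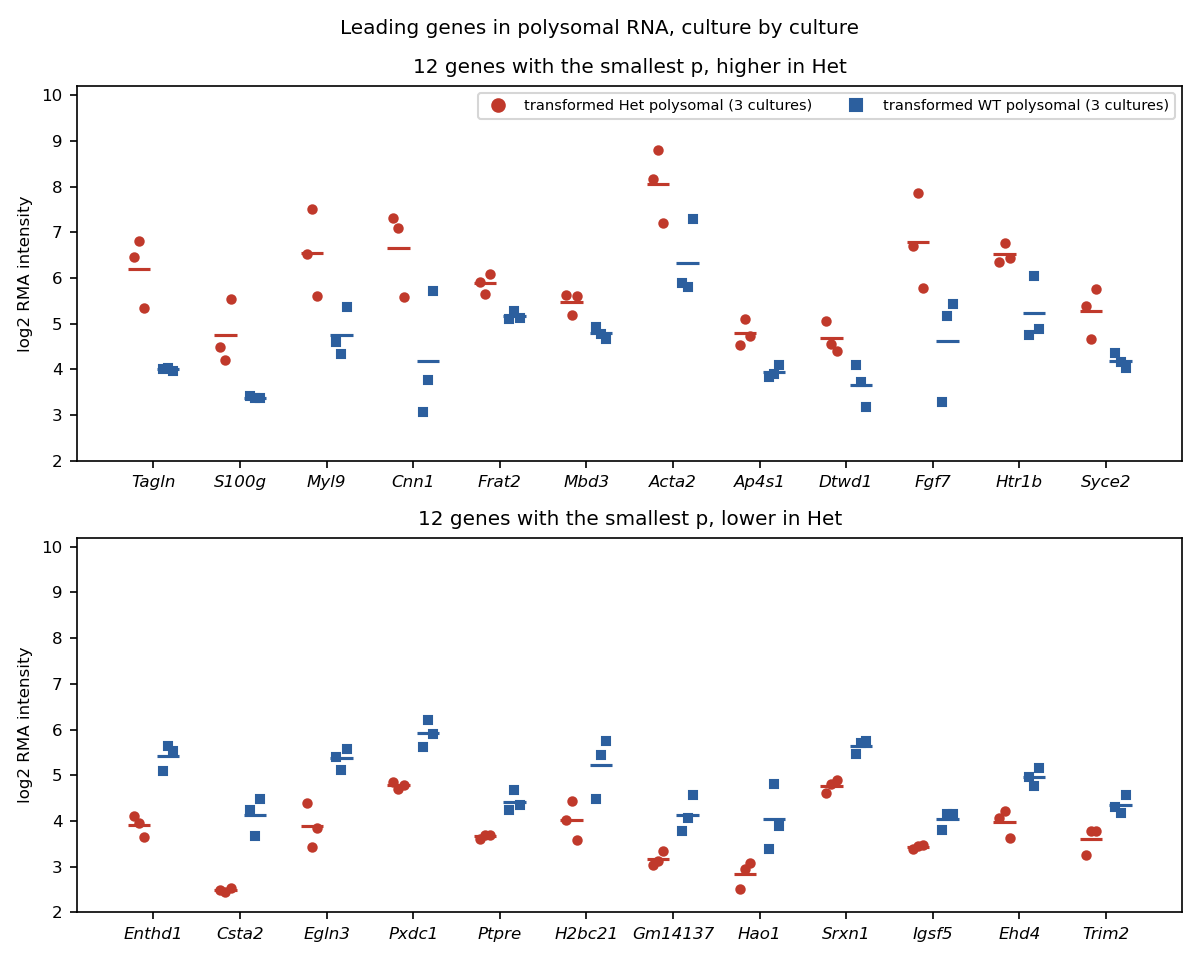
Log2 RMA intensity in transformed polysomal RNA (vertical axis) of the 12 genes with the smallest p on each side, Het cultures as red circles left of WT cultures as blue squares, with group means as lines. Cnn1 and Acta2 are the genes in which the groups overlap, and Csta2 sits at 2.44 to 2.53 in Het cultures, within background.

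Set beside total RNA of the same cultures, the leading genes differed in how near the polysomal and total RNA differences lay. Tagln differed by 2.20 in polysomal and 1.91 in total RNA, Myl9 by 1.78 and 1.71, Acta2 by 1.72 and 1.66, Egln3 by -1.48 and -1.50, and Enthd1 by -1.52 and -1.22. Cnn1 differed by 2.48 in polysomal and 1.39 in total RNA, Fgf7 by 2.15 and 1.01, S100g by 1.36 and 0.76, H2bc21 by -1.22 and -0.60, and Syce2 by 1.08 and 0.35. For Cnn1 and Fgf7 the polysomal sizes are bounds, because WT culture 1 lay within background. Csta2 differed by -1.65 and -1.54, where the polysomal value is a bound because its Het values lay within background. Pxdc1 differed by -1.14 in polysomal and -1.29 in total RNA. In total RNA Enthd1 (adjusted p = 0.0316) and Pxdc1 (adjusted p = 0.0397) passed the limma test and were lower in Het, while Egln3 and Csta2 did not (adjusted p = 0.0512 each). Mbd3 differed by 0.68 ± 0.17 in polysomal and -0.06 ± 0.10 in total RNA (SE), Frat2 by 0.72 ± 0.17 and 0.22 ± 0.18, Ap4s1 by 0.85 ± 0.21 and 0.23 ± 0.13, and Dtwd1 by 1.02 ± 0.25 and 0.23 ± 0.12. The polysomal value of Dtwd1 in WT culture 3, 3.18, lay within background. Igsf5 differed by -0.60 and -1.28 and Hao1 by -1.19 and -1.76, but their Het polysomal values lay at or near background, so the polysomal sizes are bounds and are not set against total RNA. Both fractions came from the same cultures and were normalised apart, and the difference between fractions was not tested here.

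**Figure D4:**
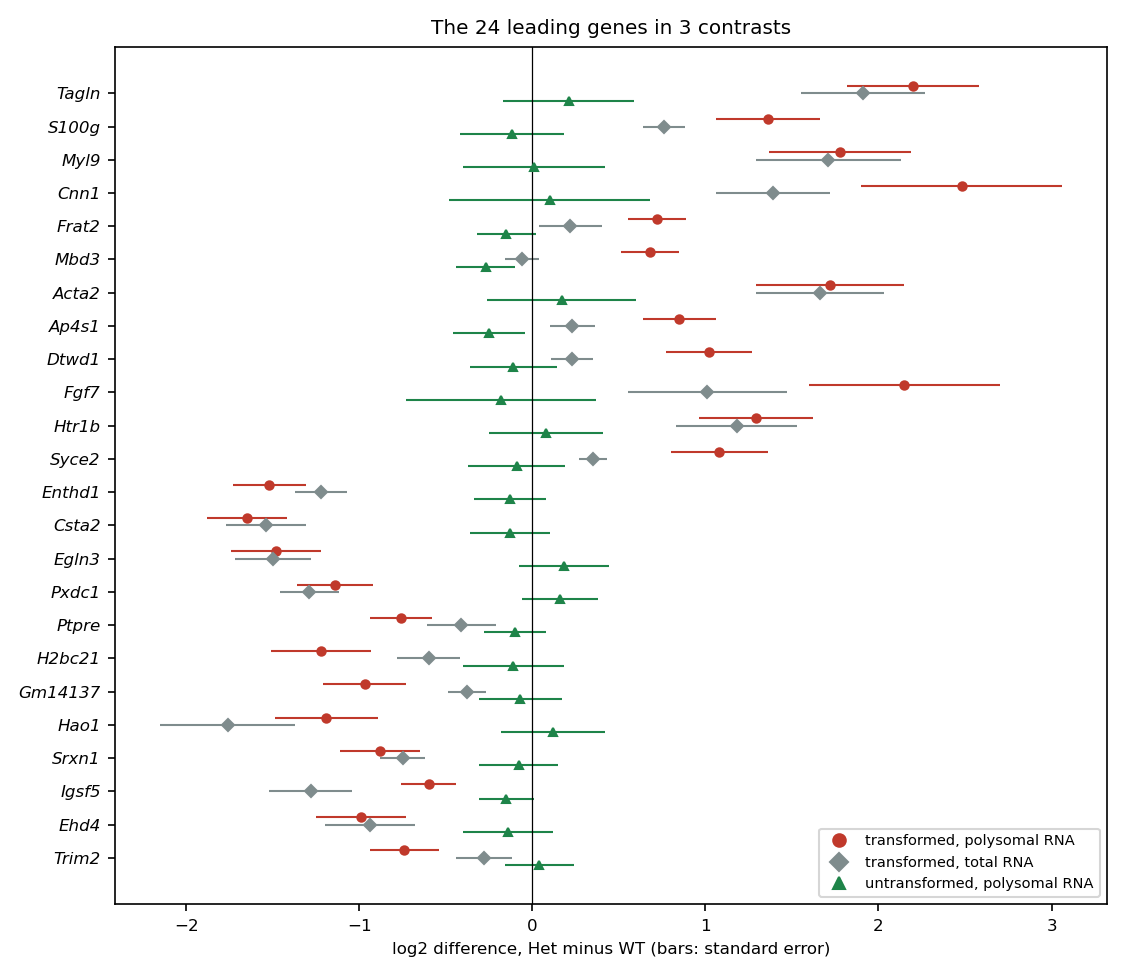
Log2 difference, Het minus WT (horizontal axis, bars are standard errors), of the 24 genes with the smallest p in transformed polysomal RNA (red circles), with the same genes in transformed total RNA (grey diamonds) and untransformed polysomal RNA (green triangles). Untransformed differences lie near 0, total RNA differences are close to the polysomal ones for Tagln, Myl9, Acta2 and Egln3 and near 0 for Mbd3.

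Whether the genotype difference depended on transformation was tested with embryo as a block, since each untransformed culture had a transformed counterpart from the same embryo. No gene passed (0 of 14830, 0%, limma), and 314 had an unadjusted p under 0.05. Without WT embryo 3, in both its transformed and its untransformed culture, that number was 2140, still with 0 genes passing. It was 185 without both cultures of Het embryo 2. The smallest p-values with a more positive difference in transformed cells belonged to Tagln (interaction 2.00), Plac8 (2.13), Myl9 (1.78), Bola2 (1.31) and Fgf7 (2.33). Those with a more negative one belonged to Egln3 (-1.66), Pxdc1 (-1.29), Ermp1 (-1.50), Enthd1 (-1.39) and Bmp2k (-1.05). Each had an adjusted p of 1. Plac8, a small cysteine-rich protein described in Ras-transformed and migrating cells, read 7.85, 7.70 and 6.30 in transformed Het and 3.68, 6.17 and 5.03 in transformed WT cultures, against 6.86 to 8.97 over the untransformed cultures. Its values did not overlap between the transformed genotypes.

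Gene lists that bear on translation showed no large shift, and the sign of some medians depended on the culture left out. Over 31 measured mRNAs reported in the literature as eIF4E-sensitive the median difference was 0.00 and 16 were positive. The median was -0.13 without WT culture 3 and 0.09 without Het culture 2. The number not overlapping with Het higher was 7 without Het culture 2 and 4 without WT culture 3, beside 9.80% and 8.82% of all genes. With no culture left out, 3 members (9.68%) did not overlap with Het higher, beside 4.14% of all genes. They included Vegfa, the angiogenic growth factor, at 5.73, 6.07 and 5.88 in Het against 5.58, 5.56 and 5.45 in WT cultures, and Bcl2l1, which encodes the survival factor BCL-XL, at 7.21, 7.12 and 7.23 against 6.79, 6.82 and 6.90. Neither had an unadjusted p under 0.05 (0.0771 and 0.146). Fth1, the ferritin heavy chain, whose translation is controlled by iron, read 6.41, 7.14 and 6.33 in Het and 7.04, 7.5 and 8.56 in WT cultures, where WT culture 3 was highest. Its difference was -1.07 ± 0.36 (SE, limma adjusted p = 1).

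Of 82 cytosolic ribosomal proteins listed 23 were measured (28%), with a median of 0.11 and 19 positive. Rplp1, an acidic stalk protein of the large subunit, read 11.30, 11.09 and 11.24 in Het and 10.81, 10.51 and 11.13 in WT cultures, and Rps27l had the largest difference at 0.87 ± 0.57 (SE). Ribosomal proteins have many processed copies in the genome and these probe sets may read them too. The 14 other mRNAs with a terminal oligopyrimidine start, the class that mTOR controls most strictly, had a median of -0.05. It was -0.31 without WT culture 3 and 0.11 without Het culture 2. Pabpc1 differed by -0.38, Vim by -0.32, Eif3h by -0.27 and Eef1a1 by -0.30. Among 27 initiation factors outside eIF4F the median was -0.02, -0.22 without WT culture 3 and 0.14 without Het culture 2. Eif1b, a paralog of a start-codon selection factor, had the smallest p among them, at 0.44 ± 0.32 (SE).

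Genes that MYC drives to build ribosomes had small differences whose sign depended on 1 WT culture. Over 48 measured members the median difference was 0.15 and 36 were positive. In 0 members the groups did not overlap, beside 4.14% of all genes with Het higher and 4.37% with Het lower. The mean level of the list was 6.48, 5.87 and 6.12 in Het cultures and 6.27, 6.30 and 5.46 in WT cultures. WT culture 3 was the lowest of the 6, and without it the median was -0.15, with the sign turned. Rrs1, needed to assemble the large subunit, differed by 0.61 ± 0.26 (SE) and Rrp9, a component of the small-subunit processome, by 0.51 ± 0.23. Srm, spermidine synthase and a direct MYC target, read 8.77, 7.94 and 8.86 in Het and 8.37, 7.72 and 7.65 in WT cultures (0.61 ± 0.31, SE).

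The mitochondrial ribosome also had its lowest WT level in WT culture 3. Over 74 measured subunits the median was 0.13 and 54 were positive, with 6 not overlapping and higher in Het (8.11%) and 1 lower (1.35%), beside 4.14% and 4.37% of all genes. Their mean level was 6.02, 5.59 and 6.09 in Het and 5.88, 5.90 and 5.51 in WT cultures, and the median was 0.00 without WT culture 3 and 0.30 without Het culture 2. Without WT culture 3, 9 subunits did not overlap with Het higher and 5 with Het lower (8.82% and 12.5% of all genes), and without Het culture 2 these counts were 23 and 1 (9.80% and 8.72% of all genes). Mrpl2, a core protein of the large mitochondrial subunit, read 6.70, 6.80 and 7.10 in Het and 6.27, 6.32 and 6.13 in WT cultures, without overlap (0.63 ± 0.22, SE). Mrps11, of the small subunit, read 6.81, 6.20 and 7.31 in Het and 6.22, 6.04 and 5.79 in WT cultures (0.75 ± 0.27, SE). Mrps26 and Mrpl24 each differed by 0.46. Of 66 respiratory chain and ATP synthase subunits 33 were positive and the median was 0.00, with Uqcr11 of complex III at 0.71 ± 0.22 (SE), its fellow subunit Uqcr10 at -0.56 ± 0.29 and the ATP synthase alpha subunit Atp5a1 at -0.39 ± 0.23.

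The medians of the cell cycle lists changed sign with the culture left out. The median was 0.04 over 41 S phase genes, -0.15 without WT culture 3 and 0.19 without Het culture 2. Over 41 genes of G2 and mitosis it was -0.02, -0.19 without WT culture 3 and 0.16 without Het culture 2. Het culture 2 and WT culture 3 had the lowest mean level of S phase genes in their group, 4.56 and 4.47, against 5.01 to 5.26 in the other 4 cultures. Pold1, the catalytic subunit of DNA polymerase delta, differed by 0.64 with no overlap (limma adjusted p = 1), and the licensing factor Cdc6 by 0.38. The mitotic cyclin Ccna2 differed by 0.43 and Birc5, which encodes survivin, by -0.41.

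Replication-dependent histone genes often did not overlap between the genotypes. Of 23 measured members 18 were positive with a median of 0.25, and 9 (39.1%) had each Het culture above each WT culture, while 2 (8.7%) had each below, beside 4.14% and 4.37% of all genes. The mean level was 7.15, 7.26 and 7.18 in Het and 6.88, 6.92 and 7.13 in WT cultures. H2ac4 read 7.43, 7.74 and 7.31 in Het and 6.05, 6.22 and 6.21 in WT cultures (1.33 ± 0.44, SE), and H2bc3 read 8.06, 8.12 and 7.81 against 7.15, 7.46 and 7.38 (0.67 ± 0.27, SE). H2bc4 lay the other way, at 7.10, 7.67 and 7.75 in Het and 7.93, 8.04 and 8.13 in WT cultures (-0.53 ± 0.20, SE). Clustered histone genes are near-identical in sequence, so members share signal and are not independent of each other. None had an adjusted p under 0.05, and the median over the list was 0.32 in untransformed polysomal RNA and 0.08 in transformed total RNA.

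**Figure D5:**
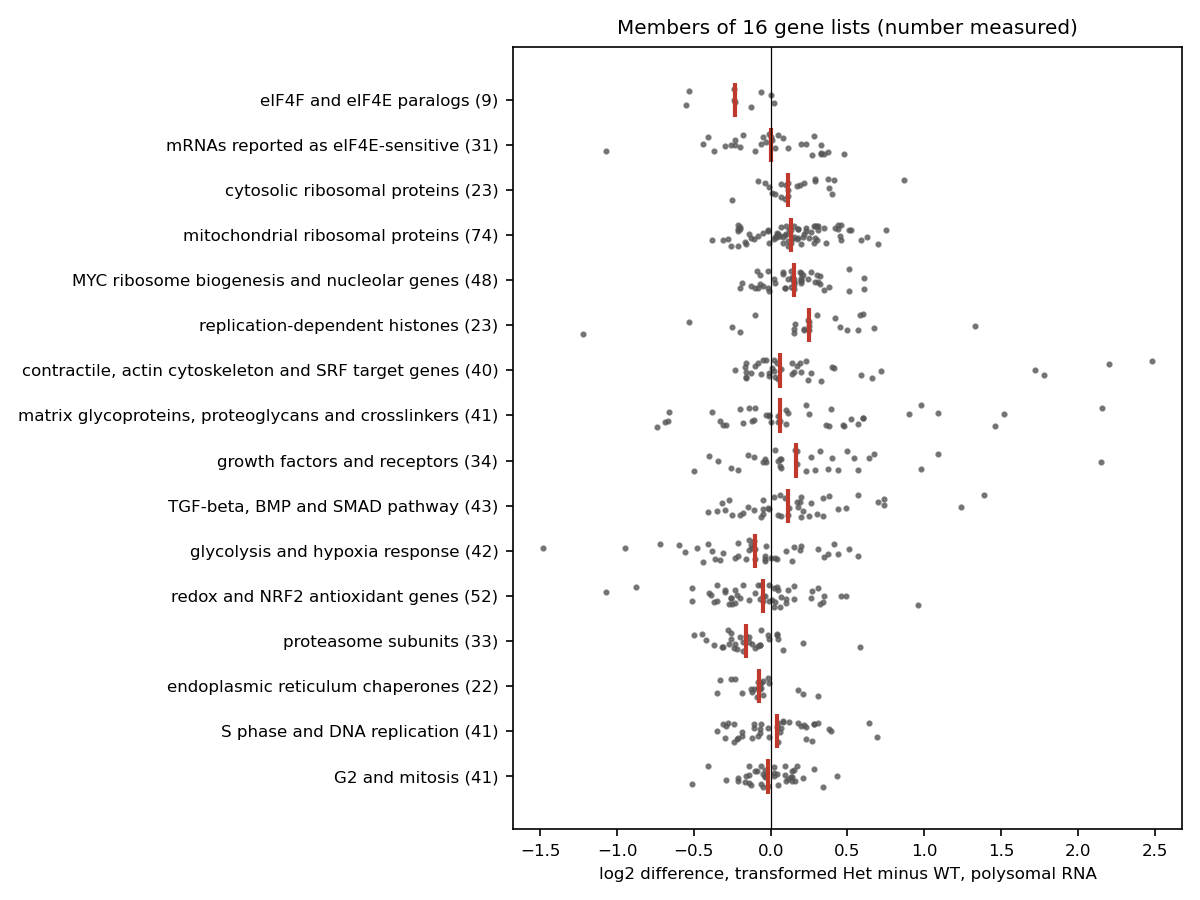
Log2 difference in polysomal RNA, transformed Het minus WT (horizontal axis), of each measured member (grey points) of 16 gene lists, with the list median as a red line and the number of measured members in brackets. Medians lie between -0.23 and 0.25, and the contractile and matrix lists hold a few members above 1.4 far from their medians.

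Extracellular matrix genes had a few members with large positive differences. Bgn, the proteoglycan biglycan, read 7.42, 7.81 and 6.5 in Het cultures, against 3.19, 6.28 and 5.79 in WT cultures, a difference of 2.16 ± 0.66 (SE, limma adjusted p = 1). The difference was 1.21 without WT culture 1, which was the lowest and lay within background. Lox, which crosslinks collagen and elastin, read 4.8, 5.28 and 3.46 in Het and 2.42, 2.70 and 4.06 in WT cultures, with overlap (1.46 ± 0.52, SE). For Lox WT cultures 1 and 2 lay within background, so the size is a bound. Fbn2, a fibrillin of elastic microfibrils, differed by 0.60 ± 0.24 and Fbln2, a fibulin, by 0.90 ± 0.37 (SE), both without overlap. Over 41 measured matrix glycoproteins, proteoglycans and crosslinkers the median was 0.06, with 5 not overlapping and higher in Het (12.2%) and 0 lower, beside 4.14% and 4.37% of all genes. Without WT culture 3 these counts were 8 and 2, beside 8.82% and 12.5% of all genes. Without Het culture 2 they were 6 and 3, beside 9.80% and 8.72% of all genes, and the median was -0.02. Over 23 collagen chains the median was 0.07, with 1 not overlapping and higher (4.35%) and 2 lower (8.7%), beside 4.14% and 4.37% of all genes. Col12a1 differed by 0.84, Col6a1 by 0.61 and Col1a2 by 0.45. Col12a1 read 3.92, 5.28 and 3.01 in Het and 3.13, 3.26 and 3.30 in WT cultures. Its WT values and Het culture 3 lay within background, and its difference was 0.24 without Het culture 2. The untransformed cultures held Bgn at 8.15 to 9.67 and Lox at 6.65 to 7.87, above each transformed culture.

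Proteases, inhibitors and adhesion genes had members on both sides. Timp1, an inhibitor of metalloproteinases, read 6.49, 7.41 and 6.81 in Het and 5.91, 6.16 and 6.26 in WT cultures, without overlap (0.79 ± 0.27, SE). Serpinb2, an inhibitor of plasminogen activators, had the most negative difference of all genes, -1.89 ± 0.76 (SE), with 3.47, 4.42 and 3.93 in Het and 5.89, 3.90 and 7.72 in WT cultures. WT culture 2 lay within the Het range, and without WT culture 3 the difference was -0.95. Cadm1, an immunoglobulin-like adhesion molecule described as a tumour suppressor, read 4.22, 3.78 and 4.08 in Het and 4.82, 5.94 and 4.33 in WT cultures (-1.0 ± 0.33, SE). In total RNA it was lower by -1.62 and passed the limma test (adjusted p = 0.0236). The integrin subunits Itga6 and Itgb7 differed by -0.57 and -0.50.

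Ligands and receptors of growth signalling had more positive than negative differences. Of 34 growth factors and receptors 24 were positive with a median of 0.16, and 4 did not overlap with Het higher (11.8%) against 1 with Het lower (2.94%), beside 4.14% and 4.37% of all genes. The count with Het higher was 8 without WT culture 3 and 4 without Het culture 2, beside 8.82% and 9.80% of all genes. Egfr, the EGF receptor, read 4.22, 4.39 and 4.14 in Het and 3.42, 3.97 and 3.64 in WT cultures (0.57 ± 0.22, SE), and the IGF receptor gene Igf1r differed by 0.50 and the PDGF receptor gene Pdgfrb by 0.54. In the TGF-beta and BMP pathway 27 of 43 were positive with a median of 0.11. The ligand Tgfb3 read 5.23, 4.87 and 4.21 in Het and 3.58, 4.47 and 4.04 in WT cultures (0.74 ± 0.27, SE). Inhba, which encodes the activin A subunit, was even in Het cultures at 5.70, 5.99 and 5.73 but split in WT cultures at 3.79, 6.32 and 3.58 (1.24 ± 0.53, SE). Id2, a target of BMP signalling, differed by 1.39 ± 0.67 (SE) with 4.31 to 6.72 in Het and 3.31 to 5.30 in WT cultures. In the Wnt list the median was 0.06, and the inhibitor Sfrp2 differed by -1.45 through WT culture 1, at 8.06, and by -0.22 without it.

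Among outputs of RAS and ERK signalling, Fosl2, an AP-1 subunit, was higher without overlap (0.50 ± 0.20, SE) and the feedback inhibitor Spred3 was lower without overlap (-0.42 ± 0.18). Ier3, an early response gene, differed by -0.55, and the median over 31 members was -0.01. The Myc and Ras genes and their partners had a median of 0.00 over 18 members, with Mxi1, a MYC antagonist, at -0.38 and the MYC partner Max at 0.28. Cdkn2a, the tumour suppressor locus of p16 and p19ARF that oncogenes induce, read 5.47, 5.93 and 5.85 in Het and 5.22, 5.43 and 4.84 in WT cultures, without overlap (0.59 ± 0.21, SE, limma adjusted p = 1). Its untransformed range was 3.72 to 4.25. Cdkn2c, another CDK inhibitor, differed by 0.36.

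Among 27 p53 targets the median was -0.02. The groups did not overlap in 2 with Het higher and 2 with Het lower (7.41% each), beside 4.14% and 4.37% of all genes. Perp, a p53 effector at cell junctions, differed by 1.15 ± 0.40 (SE), with 6.05, 5.16 and 6.56 in Het and 4.0, 5.35 and 4.96 in WT cultures. Trp53inp1, a stress-induced partner of p53, differed by 0.95 ± 0.33 (SE), with 5.39, 5.85 and 6.30 in Het and 4.82, 5.66 and 4.20 in WT cultures. In the BCL2 family 4 of 15 members did not overlap with Het higher (26.7%), and 1 with Het lower (6.67%), beside 4.14% and 4.37% of all genes. They held both death and survival factors: the apoptosis activators Bok (0.42) and Bbc3 (0.35) and the inhibitor Bcl2l1 (0.35) were higher, and the activator Bcl2l11 (-0.39) was lower. The median of the family was 0.03.

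Glycolysis and hypoxia genes were the list with the most members past an unadjusted p of 0.05 on the lower side. Of 42 measured members 14 were positive with a median of -0.10, and 5 had such a p with Het lower and 1 with Het higher, beside 1.61% of all genes on each side. The number not overlapping with Het lower was 11 without WT culture 3 and 8 without Het culture 2, beside 12.5% and 8.72% of all genes. With no culture left out, the groups did not overlap in 4 with Het higher (9.52%) and in 5 with Het lower (11.9%), beside 4.14% and 4.37% of all genes. Beside Egln3, these included Aldoc, an aldolase, at 3.02, 3.38 and 3.24 in Het against 4.01, 3.78 and 4.01 in WT cultures (-0.72 ± 0.23, SE), and Pfkp, a phosphofructokinase, at 3.98, 3.36 and 3.42 against 4.31, 4.71 and 4.60 (-0.95 ± 0.33). Aldoc lay near background in Het cultures. Egln2, a second prolyl hydroxylase, lay the other way, at 5.52, 5.38 and 5.58 in Het and 5.08, 4.95 and 5.13 in WT cultures (0.44 ± 0.15, SE). Of the members of this list 39 had a promoter window and 34 (87.2%) held the ACGTG or GCGTG core, beside 41.5% of all genes in the table, in a list built in part from known targets of hypoxia-inducible factors.

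Antioxidant genes had a median of -0.05 over 52 members, with 22 positive. Srxn1 and Fth1 were the 2 with an unadjusted p under 0.05, both lower in Het, beside 1.61% of all genes on each side. Sod2, the mitochondrial superoxide dismutase, differed by 0.35 and the glutathione transferase Mgst3 by 0.96 ± 0.67 (SE). Proteasome subunits had small and mostly negative differences, with 27 of 33 negative, a median of -0.16 and 2 not overlapping with Het lower (6.06%), near the 4.37% of all genes. Psmb7, a catalytic subunit, read 9.40, 8.93 and 8.99 in Het and 9.71, 9.47 and 9.49 in WT cultures (-0.45 ± 0.21, SE), and the immunoproteasome subunit Psmb8 differed by -0.37. Endoplasmic reticulum chaperones had 19 of 22 negative with a median of -0.08, and the stress sensor Atf6 differed by -0.33. Of these chaperones 0 had groups without overlap, beside 4.14% of all genes with Het higher and 4.37% with Het lower. Aminoacyl-tRNA synthetases had a median of -0.13 over 17 members.

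The ATF4 stress response had a median of 0.02 over 30 members, with the amino acid transporter Slc1a4 (0.50 ± 0.17, SE) and the transcription factor Atf5 (0.64 ± 0.32) higher without overlap. Slc1a4 lay at or near background, at 3.40, 3.72 and 3.79 in Het and 3.35, 3.16 and 2.89 in WT cultures, so its size is a bound. Cholesterol and fatty acid synthesis had a median of 0.15 over 28 members, which ran from -0.06 to 0.34 when each culture was left out in turn. It had 0 members without overlap, beside 4.14% of all genes with Het higher and 4.37% with Het lower. Cyp51, an enzyme of that pathway, differed by 0.58. Interferon response genes had a median of 0.01 over 25 members, with Bst2 at 0.35. Among cytokines Il34, a ligand of the CSF1 receptor, was lower without overlap (-1.04 ± 0.39, SE), and Il1rn, the interleukin 1 receptor antagonist, differed by 1.11 ± 0.57. Of the imprinted growth genes, Dlk1, a Notch ligand-like protein of embryonic tissue, was higher by 0.92 (limma adjusted p = 1) and the zinc finger gene Plagl1 by 0.74 (limma adjusted p = 1), both without overlap. Hoxa9 differed by 0.38, and the median over 32 Hox genes was 0.00. Medians were 0.03 over 14 hyaluronan and prostaglandin genes and 0.04 over 35 guidance genes. The median was -0.12 over 11 iron and polyamine genes, with Sat1, which breaks down polyamines, at -0.78.

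Markers of other cell types were mostly low, with exceptions among the keratin and neural genes. Summed signal over 19 leukocyte and macrophage markers, 10 of them above background on any array, was 170 to 184 in Het and 177 to 255 in WT cultures, on the linear scale. Within that list Cd68, a lysosomal protein abundant in macrophages, read 3.69, 4.0 and 4.33 in Het and 4.60, 4.43 and 6.28 in WT cultures, and C3ar1 differed by -0.72. Endothelial markers summed to 164 to 182 in Het and 158 to 197 in WT cultures, with Eng, also a TGF-beta coreceptor of fibroblasts, at -0.81. Adipocyte markers summed to 99.6 to 114 in Het and 112 to 156 in WT cultures, with Fabp4 at 3.81, 4.72 and 3.01 in Het and 3.89, 5.18 and 6.29 in WT cultures, a difference of -1.27 that was -0.69 without WT culture 3. Neural markers summed to 446 to 812 in Het and 239 to 1320 in WT cultures, with 10 of 18 tested positive. Gap43, a growth cone protein, read 8.50, 9.07 and 7.46 in Het and 6.37, 9.71 and 5.49 in WT cultures, a difference of 1.15 with overlap, and Nefm, a neurofilament subunit, differed by -0.75. Epithelial markers summed to 275 to 321 in Het and 211 to 507 in WT cultures. Krt18, a keratin of simple epithelia, read 7.07, 6.24 and 7.05 in Het and 4.84, 7.20 and 7.44 in WT cultures, and Krt19 read 7.49 in WT culture 3 and 3.51 to 4.10 in the other 5 cultures. Striated muscle markers summed to 245 to 269 in Het and 252 to 309 in WT cultures, with Cdh15 at -0.34, and cartilage and bone markers to 117 to 142 in Het and 121 to 144 in WT cultures. The fibroblast markers summed to 3200 to 4740 in Het and 2110 to 4220 in WT cultures. Of the 19 members 13 were positive and 6 negative, with Twist2 at 0.54, Lum at -0.67 and Dcn at -0.74. The part of these markers in the results above was not tested.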

How the data were processed

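The authors deposited log2 RMA intensities from Affymetrix Mouse Gene 1.0 ST arrays, per the submitters' processing notes. No source used here gave the RMA version or chip definition. RNA had been amplified with a whole-transcript kit, per the labels' protocols. Of 25668 probe sets, 20777 had 1 gene symbol in the platform annotation, 232 had several and 4659 had none, and only the first were used. For 564 of the 19661 genes the brightest of several probe sets was taken. Genes above an array's 40th percentile on at least 3 of 24 arrays were kept (14830). Group means were fitted to 12 polysomal arrays with limma 3.58.1 in R 4.3.3 (lmFit, eBayes, 8 residual degrees of freedom, Benjamini-Hochberg adjustment, threshold 0.05), and the fitting step was tested on simulated data. The number of arrays, 3 a group, limits the precision. Deviations of the same embryo in both states correlated at 0.062, 0.019 and 0.053 for Het and -0.119, -0.052 and -0.438 for WT, so the embryo block of the interaction rests on the labels. Named genes were the 12 smallest p in each direction, 5 in each for the interaction, genes called in at least 2 alternatives that keep all arrays, eIF4F members and regulators, up to 4 leading members of each of 48 lists and the 5 genes correlating most with Tagln. Members, lists and rules were chosen with earlier results of these data known.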

Additional observations from a re-analysis of the deposited data

Results flagged for a closer look

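Mbd3 differed in opposite directions in the 2 states, with every transformed Het culture above every transformed WT culture and every untransformed Het culture below every untransformed WT culture. It read 5.62, 5.19 and 5.60 in transformed Het and 4.92, 4.78 and 4.67 in transformed WT cultures, a difference of 0.68. In untransformed polysomal RNA it read 4.57, 4.51 and 4.68 in Het and 5.01, 4.8 and 4.75 in WT cultures, a difference of -0.27. The difference between the states, 0.95, had an unadjusted p of 0.0038 and an adjusted p of 1 in limma with embryo as a block.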

How the results depend on the processing

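The count of genes called between the genotypes was 0 as reported, 2 with array weights and 2 with trend and robust settings (Csta2 and Enthd1 each time, both lower in Het), 1 after quantile normalization and 1 after median centring with SD scaling (Csta2). It was 0 to 2 when each culture was left out in turn: 1 without Het culture 2 (Esm1, an endothelial proteoglycan, named after its values were seen, at 7.11, 3.90 and 6.71 in Het and 3.48, 4.15 and 4.09 in WT cultures) and 2 without WT culture 2 (Inhba higher, Csta2 lower). The other alternatives (6 transformed arrays alone, median centring, 4 choices of filter or probe set, the mean of probe sets, embryo as a random block, and without the 2 polysomal arrays that correlate least with the rest) gave 0. The numbers 1 to 3 name different embryos in each genotype, and deviations of same-numbered cultures correlated at 0.221, -0.197 and -0.092. They share only a number, and the fit with it as a replicate block gave 0 calls, with 414 genes at an unadjusted p under 0.05. The interaction gave 0 calls with no filter, after quantile normalization and with trend and robust settings. It also gave 0 without the embryo block (353 genes at an unadjusted p under 0.05, against 314). With each embryo left out in turn, in both its cultures, it gave 0 as well. The polysomal difference of Eif4e was -0.77 to -0.22 over the cultures left out in turn. Of 120 genes named by the rules above 120 kept their direction in every alternative run. They were chosen largely by rank in these same arrays, which the alternatives fit again, so a kept direction is no independent support. Some cell type markers given above, with Krt18, Krt19, Gap43, Lum and Dcn among them, were not in this count. Of 816 list medians recomputed 22 moved by more than the spread between cultures. Without WT culture 3, a choice made after seeing the data for counts of members, 15 proteasome subunits had each Het culture below each WT culture, against 2 with it, beside 12.5% of all genes without that culture and 4.37% with it. Without Het culture 2 the number was 3, beside 8.72% of all genes. Low signal limits genes near background, Csta2 among them.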
